A study of Mus musculus with 11 samples.

Results

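Dcr KO line 4 is 1 of 3 lines of mouse embryonic stem cells (ESCs) that lack Dicer, and its RNA was set against that of Dcr KO lines 1 and 3. Of the 48942 features in the table, 30395 carry an annotation, and the 16013 of these with a mean of at least 100 normalised reads over the 3 lines were followed as members. They comprise 13286 mRNAs, 1423 lncRNAs, 1057 pseudogenes, 191 repeat families and 56 small RNA features. Just inside the mean of 100 lay the lncRNA locus lncRNAlocus499 (100.03) and B3gnt4 (100.09), and just outside it lncRNAlocus614 (99.957) and the pseudogene PGOMOU00000133760 (99.972).

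All 5 libraries used here hold poly(A)-selected RNA from ESCs of strain 129S4/SvJae grown on gelatin with no feeder layer: 2 of Dcr WT (wild type 1 and 2) and 1 each of Dcr KO lines 1, 3 and 4. Each Dicer-null line is thus a single library, so a value particular to line 4 cannot be told apart from one particular to its culture or library. The labels do not say how each line was derived or whether it is a single clone. The libraries held 101815723 to 278006158 reads, and line 4 held 251808298. A value below is the deposited normalised count, and values are listed in the order wild type 1 and 2, then lines 1, 3 and 4. Levels are not corrected for transcript length and are compared only between libraries.

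Dicer cuts microRNA precursors into the mature microRNAs that lower the level and translation of their target mRNAs. ESCs without it survive and keep renewing, but they grow slowly and differentiate poorly. Dnmt3l, a partner of the de novo DNA methyltransferases, and Myc, a transcription factor for growth genes, are both active in wild-type ESCs.

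Dicer1 checked the genotype labels. It stood at 20131 and 18792 in wild type and at 8553, 9793 and 7743 in lines 1, 3 and 4, with all 3 lines below both wild-type libraries. The remaining reads, 39.8% of the wild-type mean in line 4, do not show which part of the gene was deleted. The core ESC factor Pou5f1 was at 214178 and 220556 in wild type and 284597, 242545 and 216556 in lines 1, 3 and 4. Its partner Sox2 was at 89812 and 90714, then 94399, 94401 and 99405, and Nanog at 147795 and 93760, then 171597, 144947 and 177676. With Zfp42 and Esrrb, these markers had log2 differences of line 4 from lines 1 and 3 between −0.28 and 0.17.

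At 2-fold, more members set line 4 apart from the other lines than set either of those apart. The rule counted members whose value + 1 was at least 2-fold beyond both other lines. Line 4 was that far above both in 26 members (0.162% of members) and below both in 81 (0.506%). Line 1 gave 23 and 37 by the same rule, and line 3 gave 4 and 19. The order of lines 4 and 1 turned at 3-fold, with 2 and 15 members for line 4, 2 and 18 for line 1, and 0 and 9 for line 3. The counts share the same libraries. A mean taken over the 3 lines also lets line 4 decide membership: of the 26, 10 had a mean of lines 1 and 3 under 100, and of the 81, 33 were under 100 in line 4. Over all 42358 features tested, many of them near 0, line 4 was 2-fold above both others in 6.31% and below in 3.54%. The median absolute log2 difference over members was 0.14 between lines 1 and 3, 0.17 between lines 3 and 4, 0.21 between lines 1 and 4, and 0.28 between the wild-type libraries.

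**Figure D1:**
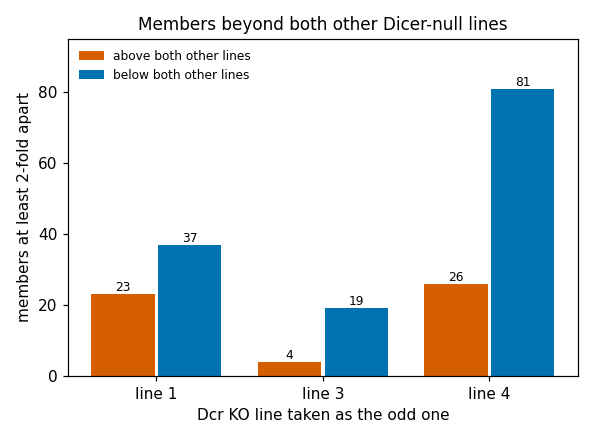
Bars give the number of members (of 16013) in which the line named on the horizontal axis was at least 2-fold above (orange) or below (blue) both other Dicer-null lines. Line 4 has the tallest pair, 26 above and 81 below, against 23 and 37 for line 1 and 4 and 19 for line 3.

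The excess of low values in line 4 depended on the scaling. With libraries scaled to their total counts the split was 57 above and 43 below, against 19 and 48 for line 1 and 1 and 20 for line 3, and the median log2 difference over members moved from −0.10 to 0.07. As deposited, line 4 was the lowest of the 3 lines in 53.9% of members and the highest in 22.5%; scaled to total counts these shares were 25.8% and 48.4%. Against line 3 alone, 69 members were at least 2-fold higher and 127 lower in line 4, and against line 1 alone 157 and 228. A difference close to the median of all members is therefore not described as one of the gene.

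In limma's test, fitted over all 42358 features with the spread taken from lines 1 and 3 and from the wild-type pair, 0 features passed an adjusted p of 0.05 (0% called; 106 members higher and 429 lower at an unadjusted p under 0.05). With edgeR the count was also 0 (134 and 451 unadjusted). DESeq2 called 3 members higher and 31 lower (121 and 477 unadjusted); over the 24291 features to which it gave an adjusted p it called 0.0206% higher and 0.144% lower. With the 3 Dcr KO libraries alone, limma had 1 residual degree of freedom and called 159 members higher and 459 lower, beside 0.567% and 1.26% of its features. An exact permutation test of 1 library against 2 cannot give a p below 0.333. Genes are therefore described by their values, and for most a DESeq2 adjusted p is given where it passed. A log2 difference and its SE come from the limma fit, so a DESeq2 p beside them belongs to another model.

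**Figure D2:**
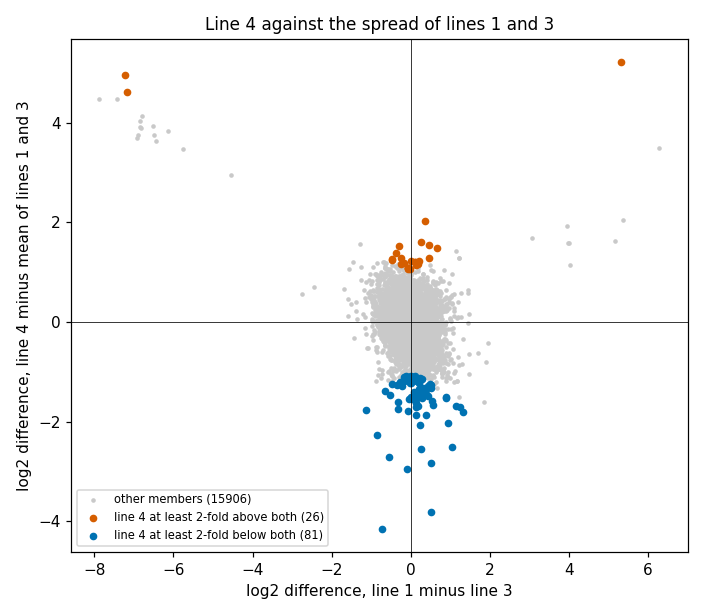
Each point is a member; the horizontal axis is the log2 difference of line 1 from line 3 and the vertical axis that of line 4 from the mean of both. The 81 blue points (line 4 at least 2-fold below both) reach −4.15, and 2 of the 3 orange points far to the left or right of centre have a value of 0 in line 1.

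The features furthest below were a peptide transporter and an imprinted lncRNA. Slc15a2, a proton-coupled transporter of small peptides, stood at 676 and 1089 in wild type, 308 and 509 in lines 1 and 3, and 21.4 in line 4. That is 17.7-fold below lines 1 and 3 (log2 difference −4.15 ± 0.44 SE; DESeq2 adjusted p = 1.74e-12), from 28 reads in line 4 against 347 and 666. Counting error alone puts the ratio of line 4 to the mean of the others at 0.0525, with a 95% interval of 0.0341 to 0.0749. Of the measured genes next to it in RefSeq order, Iqcb1 was at 2931, 3087 and 2644 in lines 1, 3 and 4 and Ildr1 at 13211, 13235 and 8365.

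Lef1, a DNA-binding partner of beta-catenin in Wnt signalling, was at 3410 and 1963 in wild type, 2198 and 3206 in lines 1 and 3, and 402 in line 4. This was 6.59-fold lower in line 4 (log2 −2.72 ± 0.39 SE; DESeq2 adjusted p = 6.56e-09), and all 4 other libraries lay above it. Its neighbours Hadh (27189, 25393 and 24193 in lines 1, 3 and 4) and Rpl34 (2011, 1462 and 1183) were closer to level. Of 21 members of the Wnt list, 1 was 2-fold below both lines, namely Lef1, while 15 were below both and 2 above, with a median of −0.25. Scaled to total counts, 10 were below and 7 above, with a median of −0.08. Of all members, 53.9% were below both lines as deposited and 25.8% scaled to total counts. Ctnnb1, which encodes beta-catenin, was at 189259, 186422 and 171681, and Axin2, a feedback inhibitor of the pathway, at 684, 520 and 608, inside the range of the other lines.

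Gnat1, the alpha subunit of rod transducin, was at 272 and 290 in wild type, 168 and 178 in lines 1 and 3, and 21.4 in line 4 (DESeq2 adjusted p = 9.15e-06). Csf1, the growth factor of macrophages, was at 1553 and 1907, then 2966 and 2724, and 775 in line 4 (DESeq2 adjusted p = 4.57e-08). Stc2, a secreted glycoprotein, followed the same order, with 2092 and 2287 in wild type, 4632 and 4031 in lines 1 and 3 and 1872 in line 4 (DESeq2 adjusted p = 0.00237). Csf1 and Stc2 were thus above both wild-type libraries in lines 1 and 3 and below both in line 4.

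**Figure D3:**
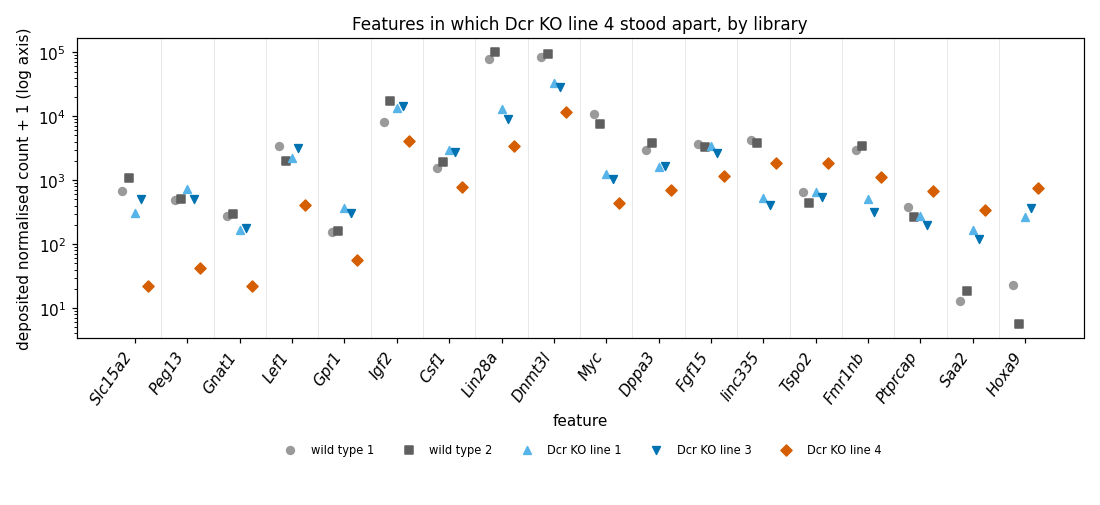
Deposited normalised counts plus 1 on a log axis for 18 features in the 5 libraries; each marker is 1 library. The orange diamonds of line 4 lie below both blue triangles from Slc15a2 (21.4) to Fgf15 (1169) and above them from linc335 (1886) to Hoxa9 (744).

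Genes of muscle-type contraction were the list with the most members 2-fold below both lines. Of 20 members, 4 were that low, 19 were below both lines (16 when scaled to total counts), and the median log2 difference was −0.37 against −0.10 for all members and 0.00 for all features tested. Among all members, 53.9% were below both lines, and 25.8% when scaled to total counts. Acta2, the actin of smooth muscle, stood at 5192 and 11165 in wild type, 591 and 415 in lines 1 and 3, and 68.1 in line 4, or 0.833% of the wild-type mean (DESeq2 adjusted p = 5.7e-07). Acta1, the actin of skeletal muscle, was at 3251 and 6183, then 500 and 242, and 60.5 in line 4 (DESeq2 adjusted p = 0.000166). Lines 1 and 3 were already far below wild type in both genes, and line 4 was lower again. In bulk samples such as these, fewer cells with these RNAs and less RNA per cell cannot be told apart.

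Tagln, an actin-binding protein of smooth muscle, was at 18703 and 19886 in wild type, 4277 and 2243 in lines 1 and 3, and 762 in line 4 (DESeq2 adjusted p = 2.19e-05). Myl9, a regulatory light chain of myosin, was at 4882 and 4480, then 2408 and 1675, and 669 in line 4 (DESeq2 adjusted p = 0.00019). The broadly used members of the list differed less: Myh9, a non-muscle myosin heavy chain, was at 259526, 216659 and 191170 in lines 1, 3 and 4, and Flna, which cross-links actin, at 276253, 250793 and 210073. Des, the intermediate filament of muscle, went the other way, with 1803 and 1363 in lines 1 and 3 and 2446 in line 4. Markers of fibroblasts, another cell type with contractile genes, went both ways against wild type but differed little between the lines. Of the 20 listed fibroblast markers 9 were members, with 0 of them 2-fold beyond both lines and a median of −0.09; the listed markers summed to 393064 and 316985 in wild type, 624962 and 738795 in lines 1 and 3, and 634609 in line 4. In all 3 lines, 5 of the 9 were above both wild-type libraries, such as Fn1 (fibronectin), at 446512, 561133 and 478177 against 313407 and 242629, and 3 of the 9 were below both. Fn1 alone made up most of each sum, so the sums say little about the other markers. The fibrillar collagen genes Col1a1 (131, 73.3 and 77.3, against 1867 and 5516) and Col1a2 (2.66, 1.53 and 0.765, against 292 and 1723), which are not members, were low in all 3 lines, and Postn was listed at 0 in them. The part of such cells in the contractile values was not tested.

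Promoter sequences are shown for this group because 4 of its members were low together and such genes are classic targets of Srf, which binds the CArG box. The box, the only motif searched, was looked for on both strands in RefSeq windows of 250 bases before to 50 after a start site (GRCm38.p6). That search was chosen after the values were seen. A match occurred in 1.63% of all 32851 windows. By gene, it occurred in 1.81% of 27025 genes, in 5 of the 18 list members with a window, and in 4 of the 41 members 2-fold below both lines that had one. Of the 4 low genes of the list, Acta1 and Myl9 held a match, Acta2 held none in this window and Tagln had no window. Each match below reads CC, then only A or T, then GG. Boxes with another base in between are not among them, so Acta2 may still hold such a box. Capitals mark the match in these stretches from the upstream part:

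Acta1, chr8:123894819-123894868, minus strand: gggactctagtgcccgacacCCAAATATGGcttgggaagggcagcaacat

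Myl9, chr2:156775283-156775332, plus strand: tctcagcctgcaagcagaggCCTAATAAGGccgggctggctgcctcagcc

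Cnn2, chr10:79988524-79988573, plus strand: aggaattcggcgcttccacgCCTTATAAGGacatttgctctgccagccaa

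Vcl, chr14:20929151-20929200, plus strand: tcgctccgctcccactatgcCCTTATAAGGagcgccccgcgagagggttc

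Srf, chr17:46556215-46556264, minus strand: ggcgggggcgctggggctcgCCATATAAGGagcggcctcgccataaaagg

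The matches began 73 bases before the start site in Acta1, 161 in Myl9, 56 in Cnn2, 227 in Vcl and 82 in Srf, which held another at 62. The genes with a match were all below both lines in line 4, as were 19 of the 20 list members, but by differing amounts. Acta1 and Myl9 had log2 differences of −2.51 and −1.58, while Cnn2 (calponin 2), Vcl (vinculin) and Srf itself had −0.59, −0.34 and −0.43. Srf stood at 18082, 19071 and 13797 in lines 1, 3 and 4. A match is a description of the letters, not a site shown to be bound.

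Imprinted genes, which are expressed from the maternal or the paternal copy only, showed both directions. Of 33 listed members, 11 were above both lines, 17 below both, 3 were 2-fold below both, and the median of −0.08 was close to that of all members. The 33 include Nckap1 and Aggf1, which entered through older gene symbols and are not known to be imprinted. Both were lowest in line 4. Scaled to total counts, 14 of the 33 were above both lines and 12 below. The balance turned likewise over all members, from 22.5% above and 53.9% below to 48.4% and 25.8%. Peg13, a paternally expressed lncRNA inside Trappc9, was at 483 and 503 in wild type, 715 and 501 in lines 1 and 3, and 41.3 in line 4. It was 14.2-fold lower in line 4 (log2 −3.82 ± 0.33 SE; limma adjusted p = 0.688, DESeq2 adjusted p = 2.1e-16). The genes around it were level: Trappc9 was at 8947, 8364 and 9608 in lines 1, 3 and 4, and Chrac1 at 2741, 2820 and 3069.

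Gpr1, a receptor at the imprinted Zdbf2 locus, was at 151 and 160 in wild type, 366 and 306 in lines 1 and 3, and 55.9 in line 4 (DESeq2 adjusted p = 2.19e-05). Its neighbour Zdbf2 was highest in line 4, at 24339, 28457 and 35105 in lines 1, 3 and 4. Features at the Igf2 locus were low together. Igf2, a fetal growth factor, was at 8218 and 17597, then 13616 and 14299, and 4074 in line 4 (DESeq2 adjusted p = 0.00566). The antisense RNA Igf2os was at 273, 248 and 83.4 in lines 1, 3 and 4; the labels do not say whether the counting used strand, so its reads and those of Igf2 may not be separate.

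The feature for Mir675, the microRNA precursor carried in the H19 transcript, was next to Igf2 among the measured genes. It stood at 3663 and 8868 in wild type, 3386 and 2898 in lines 1 and 3, and 752 in line 4 (DESeq2 adjusted p = 0.00237). These are reads of poly(A)-selected precursor RNA, not of the mature microRNA. RefSeq (GRCm38.p6) gives its 2 mature arms as follows, shown to identify the feature, with the seed (bases 2 to 8) in capitals:

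mmu-miR-675-5p, chr7:142577112-142577133, minus strand: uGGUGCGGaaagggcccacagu

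mmu-miR-675-3p, chr7:142577078-142577099, minus strand: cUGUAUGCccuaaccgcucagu

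At Dlk1-Dio3 the odd line was line 1. Meg3, a maternally expressed lncRNA, was at 38980 and 32396 in wild type and at 554, 63852 and 89316 in lines 1, 3 and 4. All 12 members from Meg3 to the last microRNA precursor before Dio3 in RefSeq order were highest in line 4, by 1.18 to 2.55 times line 3, and above both wild-type libraries. How the counting divided reads between overlapping or adjacent features is uncertain, so these 12 may not be independent of each other. Dio3, a paternally expressed enzyme that inactivates thyroid hormone, was lowest in line 4, at 1790, 2018 and 878. Dlk1, another paternally expressed gene listed at this locus, was highest in line 4, at 310, 736 and 856. Rtl1, also paternally expressed but not a member, was at 3.55, 5.35 and 0. The precursor Mir379, 1 of the 12, and the lncRNA AK142849, whose position was not looked up, met the 2-fold rule as higher in line 4, with 0 in line 1. Mir379 was at 147 in line 3 and 377 in line 4, and it gave the highest ratio, 2.55. In Mir379, AK142849 and Mir300, also 1 of the 12, the mean of lines 1 and 3 was under 100. These features became members only through line 4.

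Impact, at 13499, 15124 and 25948 in lines 1, 3 and 4, and Zrsr1, at 6369, 6471 and 10166, are paternally expressed and were highest in line 4. Grb10, an adaptor that restrains insulin signalling, was at 79217, 53576 and 34452, and Cdkn1c, an inhibitor of cyclin-dependent kinases, at 2200, 1508 and 1001. Igf2r (39062, 48299 and 41240) and Snrpn (23600, 23621 and 20492) were nearer to level.

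**Figure D4:**
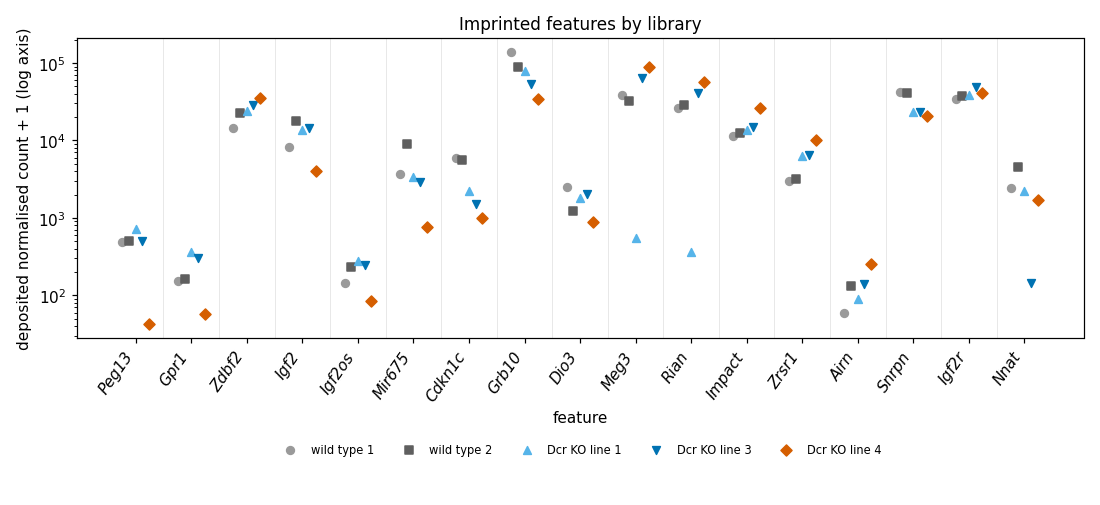
Deposited normalised counts plus 1 on a log axis for 17 imprinted features in the 5 libraries. Line 4 (orange) is alone at the bottom for Peg13 (41.3) and Gpr1 (55.9), and line 1 (light blue) for Meg3 (554) and Rian (363).

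Dnmt3l was at 84191 and 92712 in wild type, 32856 and 28761 in lines 1 and 3, and 11643 in line 4, or 37.1%, 32.5% and 13.2% of the wild-type mean. Line 4 was 2.64-fold below the other lines (log2 −1.40 ± 0.18 SE; limma adjusted p = 0.993, DESeq2 adjusted p = 1.25e-05). Of the 11 members of the DNA methylation list, 10 were below both lines, and 5 when scaled to total counts. The shares of all members were 53.9% and 25.8%. Of the list, 1 member, Dnmt3l, was 2-fold below. Dnmt3b, a de novo methyltransferase, was at 83200 and 97106, then 54088 and 47954, and 26863 in line 4. Its relative Dnmt3a (36475, 37618 and 35249 in lines 1, 3 and 4) and the maintenance enzyme Dnmt1 (175225, 173357 and 156988) had log2 differences of −0.07 and −0.15. Aire, which lies next to Dnmt3l, was also 2-fold below, at 2165, 3009 and 1073 (DESeq2 adjusted p = 0.0108).

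Myc was at 10984 and 7478 in wild type, 1253 and 1054 in lines 1 and 3, and 443 in line 4, or 4.8% of the wild-type mean. Line 4 was 2.59-fold below the other lines (log2 −1.37 ± 0.28 SE; limma adjusted p = 0.993, DESeq2 adjusted p = 0.0101). Mycn, another family member, was at 93214 and 79275, then 98392 and 99802, and 84299 in line 4. Growth genes known as Myc targets were lowest in line 4 in 33 of 34 members (24 scaled to total counts), beside 53.9% and 25.8% of all members. Their median log2 difference was −0.28, and 0 of the 34 reached 2-fold. Nop56, a ribosome biogenesis protein, was at 74263, 69324 and 46679 in lines 1, 3 and 4, and Srm, which makes spermidine, at 36794, 35499 and 24563. Tert was the exception, at 5050, 4471 and 4783.

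Among pluripotency genes, Lin28a and Dppa3 were the 2 of 24 members that were 2-fold below both lines. Lin28a, an RNA-binding protein that blocks let-7 maturation, was at 78023 and 102819 in wild type, 13160 and 8977 in lines 1 and 3, and 3437 in line 4 (DESeq2 adjusted p = 0.000141). Dppa3, a maternal factor that protects DNA methylation in the early embryo, was at 2995 and 3811, then 1625 and 1648, and 695 in line 4 (DESeq2 adjusted p = 0.00849). The list's median was −0.20, with 18 members below both lines (10 scaled to total counts), beside 53.9% and 25.8% of all members.

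Trophoblast genes had the lowest median of the lists, −0.57, with 12 of 14 members below both lines (11 scaled to total counts) and 0 above. The shares of all members below both were 53.9% and 25.8%. Eomes, a T-box factor of trophoblast and early mesoderm, was at 2128 and 1514 in wild type, 1349 and 1350 in lines 1 and 3, and 575 in line 4 (DESeq2 adjusted p = 0.0476). Hand1, a factor of trophoblast giant cells, was at 540, 629 and 237 in the 3 lines. Tpbpa and Prl3d1, markers of differentiated trophoblast, were listed at 0 in all 3 lines, and the early factor Cdx2 was at 48.8, 42.8 and 21.4 against 231 and 95.8 in wild type. Against wild type the list was mixed: in all 3 lines, 7 of the 14 members were above both wild-type libraries and 3 below both. Tead4 was at 29829, 30837 and 29917 in the lines, against 10771 and 9749, and Gata3 at 2230, 2239 and 1609, against 229 and 489. The listed markers summed to 78303 and 82595 in wild type, 129521 and 132116 in lines 1 and 3, and 111500 in line 4.

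Epithelial genes, a list that shares Krt8, Krt18 and Krt19 with the trophoblast list, had a median of −0.47. Of its 20 members, 16 were below both lines (13 scaled to total counts), beside 53.9% and 25.8% of all members. Krt18 was the member 2-fold below, at 10829 and 18588 in wild type, 13062 and 9336 in lines 1 and 3, and 4627 in line 4. Krt19 (3597, 2259 and 1133; DESeq2 adjusted p = 0.0181) and Epcam, a surface adhesion protein of ESCs (62360, 58688 and 32107; DESeq2 adjusted p = 0.031), were called by DESeq2 without being 2-fold below both lines. Cdh1, the adhesion protein E-cadherin, was at 136667, 119690 and 107284, a log2 difference of −0.25.

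The other members that DESeq2 called lower belong to no single list. Fndc3c1 was at 2207 and 2915 in wild type, 634 and 574 in lines 1 and 3, and 185 in line 4 (DESeq2 adjusted p = 0.000128). Pla2g1b, a secreted phospholipase, was at 17148 and 12977, then 3127 and 2679, and 1035 in line 4 (DESeq2 adjusted p = 0.00019). Both kept the order wild type, lines 1 and 3, line 4.

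Tgm3, a transglutaminase of the skin, was at 1418 and 1917 in wild type, 1657 and 1538 in lines 1 and 3, and 567 in line 4 (DESeq2 adjusted p = 0.00112). Here lines 1 and 3 lay inside the wild-type range and line 4 alone was low. The same pattern as in Tgm3 was seen in Synpo2l, an actin-associated protein of striated muscle (1231 and 1469, then 1473 and 1111, and 507; DESeq2 adjusted p = 0.0156), except that line 3 was just below wild type and line 1 just above. Calca, the gene of calcitonin, was at 861, 658 and 277 in lines 1, 3 and 4 (DESeq2 adjusted p = 0.022), and the co-stimulatory ligand Icosl at 1915, 2220 and 967 (DESeq2 adjusted p = 0.0247).

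Several developmental regulators were 2-fold below both lines without passing in DESeq2. Fgf10, a growth factor of limb and lung buds, was at 171, 131 and 40.6 in lines 1, 3 and 4. Wt1, a factor of kidney and gonad, was at 1658 and 1003 in wild type, 2740 and 2993 in lines 1 and 3, and 1306 in line 4, so line 4 was back inside the wild-type range. Sox7, of early endoderm, was at 277, 280 and 124, and Runx1, of blood, at 195, 175 and 82.7. Trh, the precursor of thyrotropin-releasing hormone, was at 21057, 18368 and 7577, but the wild-type libraries themselves stood at 56540 and 17494.

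Signals and metabolic genes added single members. Fgf15, an early embryonic growth factor, was at 3385, 2689 and 1169 in lines 1, 3 and 4 and passed in DESeq2. Fgf4, another Fgf gene expressed in these ESCs, was at 67104, 65535 and 58113. Slc16a3, which exports lactate, was at 7159, 8022 and 3352 (DESeq2 adjusted p = 0.0261), the only 1 of 31 members of the glycolysis list to be 2-fold below. The ER stress and amino acid synthesis list had 20 of 23 members below both lines (14 scaled to total counts), beside 53.9% and 25.8% of all members. Its median was −0.36, and Psat1, of serine synthesis, was at 58388, 44664 and 34774. Endoderm (median −0.10), mesoderm (−0.01), G1/S control (−0.06) and p53 target lists (−0.07) lay near the median of all members. Even so, 2 of 15 endoderm members (Sox7 and Dab2) and 2 of 11 mesoderm members were 2-fold below both lines, beside 0.506% of all members. The 2 of mesoderm, Eomes and Hand1, are also on the trophoblast list. G1/S control and p53 targets had 0.

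**Figure D5:**
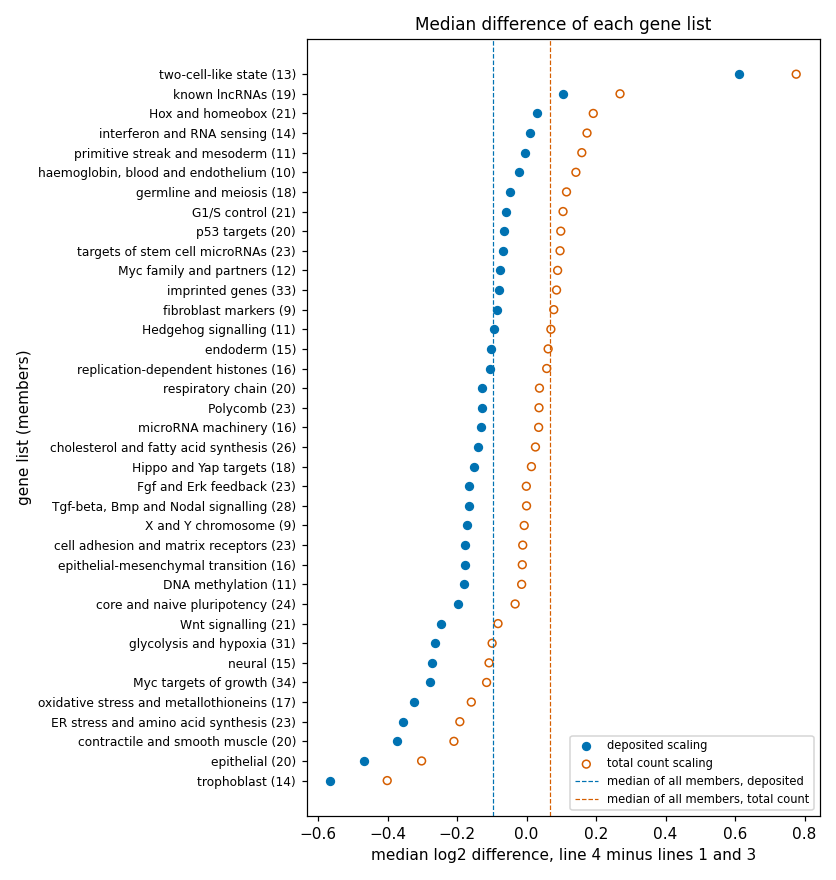
Median log2 difference of line 4 from lines 1 and 3 for each gene list, with its number of members in brackets, as deposited (filled) and scaled to total counts (open); dashed lines mark the medians of all members, −0.10 and 0.07. The 2-cell-like list lies furthest right (0.61) and the trophoblast list furthest left (−0.57).

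Fewer members were higher in line 4. The lncRNA linc335 (bartel:linc335) was at 4237 and 3817 in wild type, 524 and 409 in lines 1 and 3, and 1886 in line 4, 4.07-fold above the other lines (log2 2.03 ± 0.24 SE; DESeq2 adjusted p = 6.56e-09). Fmr1nb, a testis-expressed gene beside Fmr1, had the same order, with 2953 and 3372, then 503 and 316, and 1112 in line 4 (DESeq2 adjusted p = 0.0159). In both, line 4 lay between the other lines and wild type. Fmr1 itself was level, at 15717, 19305 and 17582 in lines 1, 3 and 4.

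Tspo2, a translocator-type protein of erythroid cells, was at 642 and 437 in wild type, 658 and 548 in lines 1 and 3, and 1835 in line 4 (DESeq2 adjusted p = 0.00329). Ptprcap, which binds the phosphatase CD45, was at 378 and 268, then 276 and 200, and 686 in line 4. The acute-phase gene Saa2 was at 12.1 and 17.3, then 166 and 121, and 345 in line 4. The adjacent Saa1, at 76.3, 70.3 and 170, reached the mean of 100 only through line 4. Hoxa9, a patterning factor, was at 22.1 and 4.56, then 266 and 367, and 744 in line 4, and the adjacent Hoxa10 was in the same order, at 307, 360 and 640 in lines 1, 3 and 4. On the other side Hoxa7 was at 382, 440 and 409. AK128397, a coding feature, was at 310 and 247 in wild type and 279, 6.11 and 1659 in lines 1, 3 and 4, so its distance from the other lines rests partly on 8 reads in line 3.

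Genes of the 2-cell-like state, a rare transient condition of ESCs marked by Zscan4, were above both lines in 11 of 13 members. Of all members 22.5% were, and the list's median was 0.61 (0.78 scaled to total counts). Zscan4c was at 1954, 2339 and 3417 in lines 1, 3 and 4, and Tmem92, the member 2-fold above, at 2157, 2415 and 5211. The wild-type libraries differed by more than that: Zscan4c was at 950 and 174 in them, and Tmem92 at 863 and 204. Zscan4 genes are near-identical copies, so how the counting divided reads between them is uncertain and these genes are not independent of each other.

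By class, repeat families had a median log2 difference of 0.23, with 124 of 191 highest in line 4. Of all members 22.5% were highest there, and 48.4% when scaled to total counts. Repeats, members or not, took 0.171% and 0.166% of reads in wild type, 0.121% and 0.147% in lines 1 and 3, and 0.153% in line 4. The median was 0.03 for lncRNAs, against −0.11 for mRNAs and −0.11 for pseudogenes. Unannotated loci, which are not members, had 0.29 and took 0.601% of reads in line 4 against 0.432% and 0.482% in lines 1 and 3. The RNA of 7SL (7SLRNA) was at 2416, 3784 and 6384 in lines 1, 3 and 4, and at 47650 and 15278 in wild type. The part of these classes in the other results was not tested.

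Wild type was used as a reference for the members beyond 2-fold. The 81 and the 26 were chosen for being low or high against the other lines. That choice by itself favours positions below or above wild type. The same shares over all members are not given, so the counts describe the chosen members only and are not a result about wild type. Of the 81 members 2-fold below, 46 were further from the wild-type mean than lines 1 and 3 were, 10 lay between, and 25 had passed it; 66 were below both wild-type libraries. Acta2, Lin28a, Dnmt3l and Myc belong to the 32 in which all 3 lines were below both wild-type libraries. Of the 26 members above, 17 were further from wild type, 3 lay between and 6 had passed it. The 81 comprised 66 mRNAs, 11 lncRNAs, 3 pseudogenes and 1 small RNA, and the 26 comprised 12, 10, 3 and 1.

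Few of these members were neighbours. Among the 76 with a RefSeq position, 4 adjacent pairs of members shared a direction: Aire with Dnmt3l, Mir675 with Igf2, Igf2 with Igf2os, and Saa1 with Saa2, of which Saa1 became a member only through line 4. Large gaps between lines 1 and 3 were of another kind. Of the 16 members at least 8-fold lower in line 1 than in line 3, 12 were those from Meg3 to the last microRNA precursor before Dio3. The 9 that were 8-fold lower in line 3 included the Y-linked Uty, Eif2s3y and Kdm5d. Eif2s3y was at 7757, 506 and 7525 in lines 1, 3 and 4.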

How the data were processed

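Poly(A)-selected RNA of 2 Dcr WT and 3 Dcr KO libraries was used; the other 6 of the series' 11 samples are not analysed here. The authors deposited a normalised signal per feature: read counts divided by 1 factor per library, of which 100% of values in each column were whole reads within 0.01 read. The submitters' processing notes name TopHat, Bowtie and DESeq, and mm9 as the build. These notes do not name the counting tool or its strand setting. Columns matching no sample numbered 0. RefSeq symbols (GRCm38.p6) matched 12992 of 13179 RefSeq members and served for names and order only, so no comparison by chromosome was made. Listed symbols without a feature were looked up among RefSeq synonyms. This brought Nckap1 and Aggf1 into the imprinted list and Pdpk1 into the glycolysis list. limma 3.58.1 (R 4.3.3, trend) was fitted on log2(value + 1) to 3 levels (wild type, lines 1 and 3, line 4) over the 42358 features that reached 1 in 2 or more libraries, with Benjamini-Hochberg adjustment; edgeR 4.0.16 and DESeq2 1.42.0 used the recovered reads. The lone line 4 library is assumed to vary like the others, and p-values measure only the spread between these libraries. The scripts were tested on simulated data. Intervals cover counting error only. Members, gene lists and tests were chosen with earlier results of these data known. The rule for named genes (7 genes always, then called members by size) gave only those 7 because limma called 0, so other names were taken from the 2-fold rule and the lists after their values were seen. Alternatives covered scaling, tool, pseudocount, filters, membership and left-out libraries.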

Additional observations from a re-analysis of the deposited data

How the results depend on the processing

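Calls depended on the tool. Members called higher and lower were 0 and 0 with limma and stayed 0 under edgeR, 3 scalings, pseudocounts of 0.5 and 10, both other filters, a fit of members only, 3 other membership rules and each left-out library (0 to 0). They were 3 and 31 with DESeq2, and 159 and 459 with limma on the Dcr KO libraries alone; the cause was not tested. The 26 members 2-fold above and 81 below became 2 and 15 at 3-fold (2 and 18 for line 1), 228 and 410 at 1.5-fold, 57 and 43 with total count scaling, and 8 and 33 with a mean of at least 500; a mean of at least 50 gave 55 above. Without Dcr KO replicate 1 or 3, an alternative chosen after seeing the data, the counts were 69 to 157 above and 127 to 228 below, since 1 line then sets the bound. No paired analysis was possible because Dcr WT and Dcr KO share only the number 1 and the Dcr KO numbers name lines. Members with few reads limit the folds: the highest of the 3 lines held as few as 163 reads among the 81.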

Other observations

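Below the mean of 100, 2 genes related to the groups above were listed at 0 in line 4 and were chosen after their values were seen. Actc1, the cardiac actin, had 52 and 15 reads in lines 1 and 3 and 0 in line 4. With a floor of 3 reads, line 4 was at least 12.5-fold below the mean of lines 1 and 3. That mean rests mostly on line 1, so the bound against line 3 alone is smaller. Nap1l5, an imprinted gene, had 35, 34 and 0 reads and was at least 12.4-fold lower by the same measure.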
